A study of Mus musculus with 38 samples.

Results

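Marrow holds blood-forming cells in a niche built by non-blood cells, and 10 genes of that niche were followed here in whole bone marrow of 38 mice: Cxcl12, Kitl, Lepr, Adipoq, Lpl, Col1a1, Col1a2, Col3a1, Sparc and Cdh5. The members were all probe sets of the array that are annotated to exactly 1 of these symbols, which gave 26 probe sets for 10 genes among 18194 genes that the array holds with a single symbol. A probe set is a group of short oligonucleotides on the array that reads 1 stretch of transcript. The leukaemic samples came from 34 C57BL/6 mice that had been lethally irradiated and had received syngeneic progenitors positive for the receptor c-kit. Those progenitors had been infected with a retrovirus that carried 1 MLL fusion oncogene, in which the front part of the MLL protein is joined to a partner. The cohorts were MLL-AF1p (9 mice), MLL-AF10 (8), MLL-GAS7 (5), MLL-AF9 (5) and MLL-ENL (7), sampled at euthanasia, and the controls were 4 marrow samples of wild type C57BL/6 mice, labelled as normal. The labels give mice of either sex and no age, and they do not say that the normal mice were irradiated or transplanted, so that fusion, leukaemia and transplantation cannot be told apart in any comparison with normal marrow. All samples were cryopreserved marrow cells extracted with Trizol, and each mouse was measured on 1 array.

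Perivascular reticular cells of the marrow make CXCL12, the chemokine that holds stem and B-lineage cells in place through the receptor CXCR4, and KITL, the stem cell factor that acts through c-kit. Many of these cells carry the leptin receptor LEPR, lie along vessels whose endothelium is joined by VE-cadherin (Cdh5), and share a lineage with marrow adipocytes, which secrete adiponectin (Adipoq), and with the osteoblasts and fibroblasts that lay down collagen types I and III. Lipoprotein lipase (Lpl), which frees fatty acids from circulating triglyceride, is made by fat cells and also by macrophages, and SPARC is a collagen-binding matrix protein that megakaryocytes and platelets hold as well.

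Stretches of 250 bases before the start site were found for 7 member genes (Lepr with 2 start sites) in the RefSeq promoter table (build GRCm38.p6, plus strand for the 4 shown). In all, 4 motifs were searched on both strands and are in capitals. The TATA box, searched as TATAAA, occurred in 12.4% of all 32851 such stretches, and the CCAAT box in 33.8%. The GC box, searched as GGGCGG, occurred in 32.7%, and the site of EBF factors, searched as CCCNNGGG, in 11.8%. The 4 genes below are shown because each fell in leukaemic marrow while their start sites differ in make-up.
Cxcl12: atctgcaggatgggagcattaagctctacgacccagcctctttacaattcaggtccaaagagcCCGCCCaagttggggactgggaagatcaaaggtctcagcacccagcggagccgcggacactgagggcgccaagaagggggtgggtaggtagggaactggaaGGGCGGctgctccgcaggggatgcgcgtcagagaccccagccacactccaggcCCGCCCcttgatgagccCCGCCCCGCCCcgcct
Kitl: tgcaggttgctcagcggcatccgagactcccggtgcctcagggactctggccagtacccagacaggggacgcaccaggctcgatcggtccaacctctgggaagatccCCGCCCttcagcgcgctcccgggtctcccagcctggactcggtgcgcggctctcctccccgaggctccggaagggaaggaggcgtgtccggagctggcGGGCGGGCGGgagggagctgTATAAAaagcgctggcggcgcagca
Adipoq: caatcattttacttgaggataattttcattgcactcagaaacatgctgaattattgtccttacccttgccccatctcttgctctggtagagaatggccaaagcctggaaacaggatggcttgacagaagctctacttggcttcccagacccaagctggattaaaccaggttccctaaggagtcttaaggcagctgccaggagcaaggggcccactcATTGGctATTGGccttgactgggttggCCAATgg
Col1a2: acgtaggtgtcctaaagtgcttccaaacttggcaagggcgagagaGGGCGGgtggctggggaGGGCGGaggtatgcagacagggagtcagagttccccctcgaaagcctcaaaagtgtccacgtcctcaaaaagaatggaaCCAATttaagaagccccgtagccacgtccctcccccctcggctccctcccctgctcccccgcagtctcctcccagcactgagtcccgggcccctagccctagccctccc
The Cxcl12 stretch (chr6:117168285-117168534) had 64.4% G and C and 5 matches to GGGCGG, the last 2 sharing a base at 11 bases before the start site. That of Kitl (chr10:100015571-100015820) had 69.2% G and C, with 3 matches to GGGCGG, of which 2 overlapped, and TATAAA from 25 to 20 bases before the start. Adipoq (chr16:23146286-23146535) was lower in G and C at 48.8% and held 3 matches to CCAAT within its last 34 bases. Col1a2 (chr6:4505368-4505617) had 62% G and C, with 2 matches to GGGCGG and 1 to CCAAT at 109 bases before the start. Of the 7 member genes with a stretch in the table, 4 held GGGCGG, 3 held CCAAT, 2 held TATAAA and 0 held CCCNNGGG. The median over all stretches was 52.4% G and C. These matches describe letters in the reference and were not tied to the expression values.

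Most niche genes were lower in leukaemic marrow. In a fit of all 45037 non-control probe sets with no filter on dim signal, 14 of the 26 member probe sets were lower and 1 higher than in normal marrow at a Benjamini-Hochberg adjusted p under 0.05 (limma), against 8.83% of all probe sets lower and 15.6% higher. The 14 came from 8 of the 10 genes: Cxcl12, Kitl, Lepr, Adipoq, Col1a1, Col1a2, Col3a1 and Sparc. The median log2 change was -0.78 over the 26 members and 0.12 over all probe sets. In 6 of the 26, all 34 leukaemias lay below all 4 normal samples, which was so for 2.58% of all probe sets. With the filter used for the rest of the values (above the array's own median on at least 4 arrays) 20 member probe sets stayed, of which 13 were lower and 2 higher, against 12.1% and 24.9% of the 29004 kept, and in 5 the leukaemias lay wholly below the normal samples, against 3.8%. Of the 20, 9 exceeded that median on fewer than 4 leukaemic arrays and so passed only with the help of the normal samples. Of these 9, Col3a1 1427883_a_at exceeded it on 1 normal array, Col1a1 1423669_at on 2 and the others on 3 or 4. All 9 were among the 13 lower. The rest of the 13 were Cxcl12 1417574_at and 1448823_at, Col1a1 1455494_at and Col1a2 1450857_a_at. In bulk marrow, fewer cells of a type and less RNA per cell cannot be told apart.

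**Figure D1:**
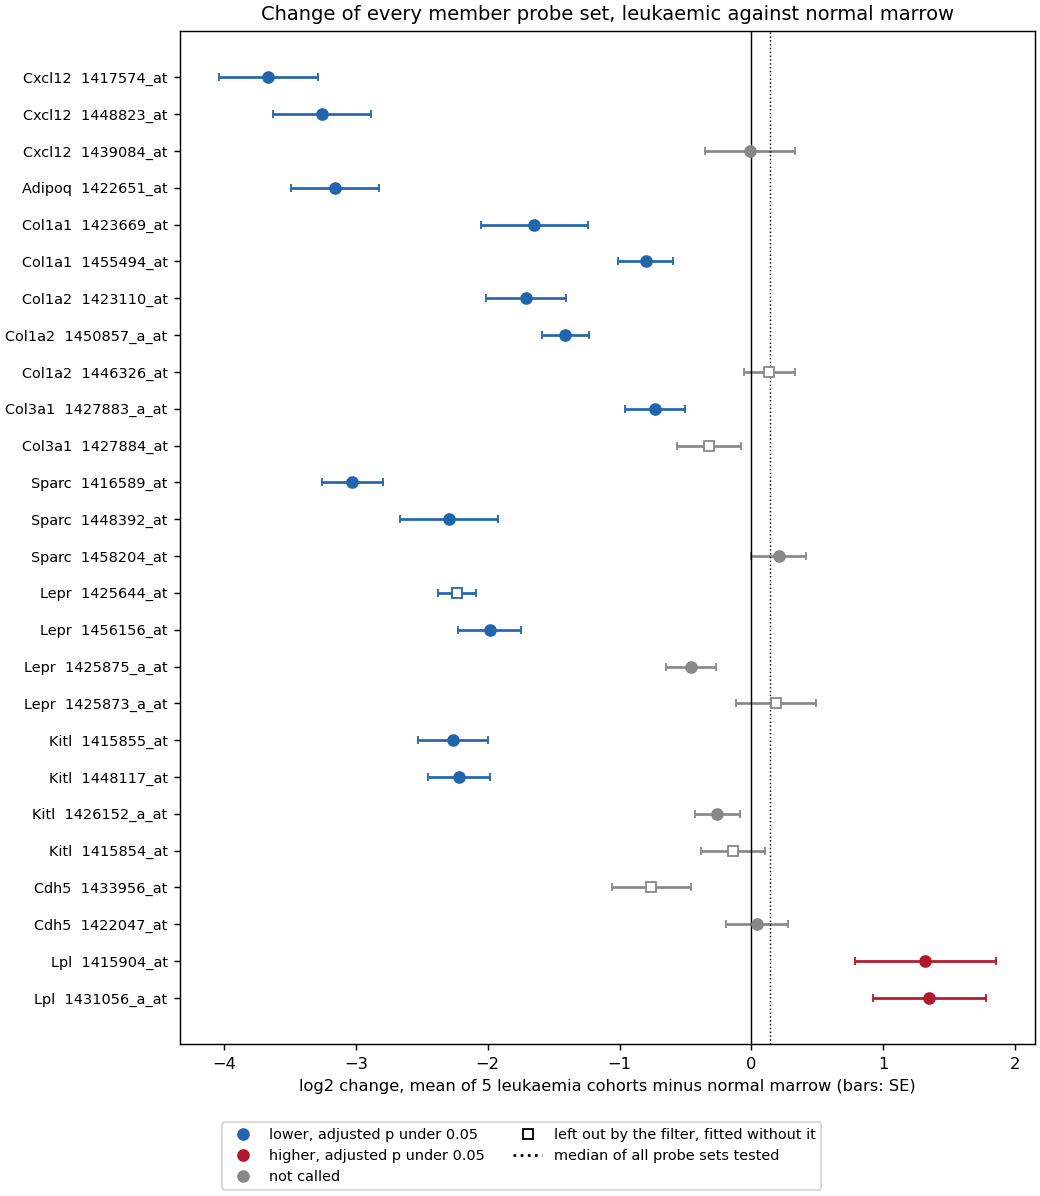
Change of each of the 26 member probe sets on the log2(intensity + 46.1) scale (x axis), as the mean of the 5 leukaemia cohorts minus the mean of the 4 normal samples, with bars of 1 SE. Blue points (lower) run from Cxcl12 at -3.66 to Col3a1 at -0.73, both Lpl probe sets lie near 1.3 in red, and grey points did not pass the test.

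Cxcl12 fell in leukaemic marrow by 2 of its 3 probe sets. Levels are given as log2(intensity + 46.1), the added 46.1 being the lower quartile of the deposited values, with the arrays shifted to 1 common median. By probe set 1417574_at the normal samples had levels of 11, 11.23, 12.19 and 13.24, and the 34 leukaemias ran from 6.08 over a median of 8.05 to 11.53. All but 1 leukaemia lay below all normal samples, and the exception was mouse MLL-GAS7_407. The change was -3.66 ± 0.37 (SE, adjusted p = 4.21e-10, limma), a 12.7-fold drop. By 1448823_at the normal samples were closer together, at 11.46, 11.61, 11.88 and 11.99, and the leukaemias spanned 6.76 to 11.48 with a median of 8.26. That gave a change of -3.26 ± 0.37 (adjusted p = 5.36e-09, limma). The third Cxcl12 probe set, 1439084_at, exceeded its array's median on 1 normal and 5 leukaemic arrays and had a change of -0.01 ± 0.34, and gave no call.

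Kitl, the other factor that niche cells present to stem cells, was read by 4 probe sets that did not move alike. For 1415855_at the normal samples had 8.47, 8.97, 9.13 and 9.72 and the leukaemias ran from 5.77 to 8.09 with a median of 6.79. For 1448117_at the normal samples had 8.23, 8.47, 8.84 and 9.47 and the leukaemias 5.78 to 7.67 with a median of 6.39. The groups did not overlap in either, and the changes were -2.27 ± 0.27 (adjusted p = 1.11e-08) and -2.22 ± 0.24 (adjusted p = 1.31e-09, limma). The Kitl probe set with the highest mean, 1426152_a_at, ran from 8.21 to 8.44 in normal marrow and from 7.18 to 8.70 in leukaemias, with a change of -0.26 ± 0.17 (adjusted p = 0.248). The fourth, 1415854_at, did not pass the filter and had a change of -0.14 ± 0.24 without it.

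Lepr, which marks the reticular cells, showed the same division among its 4 probe sets. By 1456156_at the normal samples had 7.90, 8.01, 8.77 and 8.85, the leukaemias ran from 5.37 over 6.41 to 7.49, and the groups did not overlap. The change was -1.98 ± 0.24 (adjusted p = 2.04e-08, limma). Probe set 1425644_at failed the filter because it exceeded the array median on 3 normal and 0 leukaemic arrays. In the fit without a filter its normal samples had 7.44, 7.87, 7.92 and 8.80, all 34 leukaemias lay between 5.43 and 6.37, and the change was -2.23 ± 0.14 (adjusted p = 2.56e-15, limma). The probe set with the highest mean, 1425875_a_at, had normal levels from 8.19 to 8.66 and a change of -0.46 ± 0.19 that missed the threshold (adjusted p = 0.0551), with 33 of 34 leukaemias under the normal median. The fourth, 1425873_a_at, was dim in all groups, with a change of 0.19 ± 0.30 without the filter.

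Sparc repeated this pattern. By 1416589_at the normal samples had 7.93, 9.14, 9.95 and 10.32 and the leukaemias ran from 5.83 over 6.30 to 7.74, with no overlap and a change of -3.02 ± 0.23 (adjusted p = 1.97e-13, limma). With 1 added in place of 46.1 that change was -4.21, and those of Kitl by 1448117_at and Lepr by 1456156_at were -3.18 and -3.19, since dim leukaemic values gain most from the added constant. By 1448392_at the change was -2.29 ± 0.37 (adjusted p = 4.94e-06), and 1 leukaemia, MLL-GAS7_407 at 9.38, lay within the normal range of 8.37 to 10.09. By 1458204_at, the Sparc probe set with the highest mean, normal marrow had 7.43 to 8.20, leukaemias 6.57 to 8.71, and the change was 0.21 ± 0.21 (adjusted p = 0.472). Where a gene is represented by its probe set with the highest mean, 5 of the 10 members were lower and 1 higher, against 12.5% and 28.3% of 13333 genes, and Sparc, Kitl and Lepr were not among those lower. Counting a gene when any of its kept probe sets passed, 8 were lower and 1 higher, against 15.7% and 32.7% of genes. Why probe sets of 1 gene differed was not tested.

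The fibrillar collagens fell less. Their normal samples spread widely in Col1a1 by 1423669_at (SD 1.76) and less in their other called probe sets (SD 0.467 to 0.889). Col1a2, the second chain of type I collagen, had 9.31, 9.55, 10.60 and 10.76 in normal marrow by 1450857_a_at, and the leukaemias lay between 8.16 and 9.28 with a median of 8.62. The groups did not overlap, and the change was -1.41 ± 0.18 (adjusted p = 6.69e-08, limma). By 1423110_at the change was -1.71 ± 0.30 (adjusted p = 2.28e-05), while 1446326_at, which failed the filter, gave 0.13 ± 0.19. Col1a1, the first chain, had normal levels of 5.88, 6.89, 8.98 and 9.65 by 1423669_at and leukaemic levels from 5.60 over 6.02 to 7.89. Normal samples 1 and 2 were thus above every leukaemia, while normal samples 3 and 4 lay among them. The change was -1.65 ± 0.40 (adjusted p = 0.00135), and by 1455494_at it was -0.80 ± 0.21 (adjusted p = 0.00239, limma). Without normal sample 2 both Col1a1 values missed the threshold, at -1.04 (adjusted p = 0.0528) and -0.56 (adjusted p = 0.055, limma). Col3a1, the type III collagen chain, had 7.497, 7.504, 7.57 and 8.46 in normal marrow by 1427883_a_at and 6.24 to 8.15 in leukaemias, a change of -0.73 ± 0.23 (adjusted p = 0.0101, limma). Its other probe set, 1427884_at, gave -0.32 ± 0.24 without the filter.

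**Figure D2:**
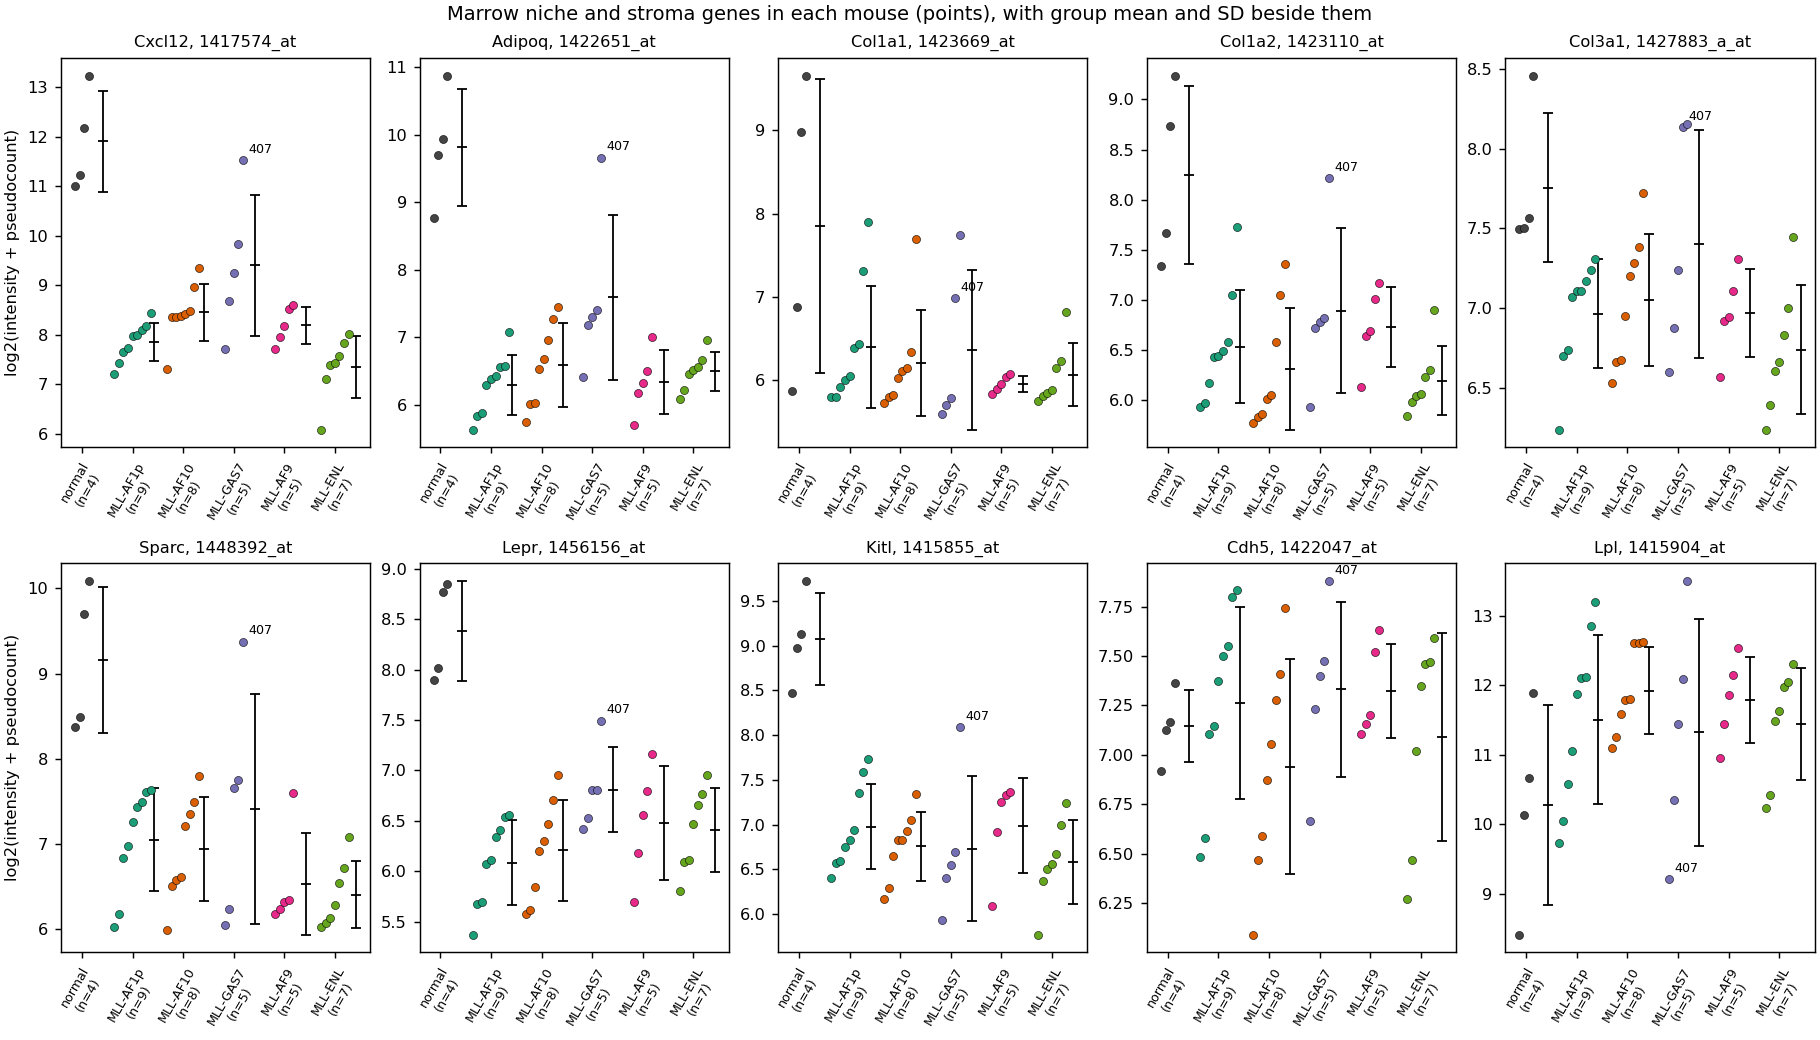
Level of each gene in each mouse (y axis, log2(intensity + 46.1)) in the 6 groups on the x axis, for the probe set of each gene with the highest SD. Points are mice, sorted by value within a group, with the group mean and SD beside them; at least 31 of the 34 leukaemias lie below all 4 normal samples for Cxcl12, Adipoq, Col1a2, Col3a1, Sparc, Lepr and Kitl, the groups overlap more for Col1a1, Cdh5 and Lpl, and mouse MLL-GAS7_407 is marked.

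The fat cell hormone Adipoq fell, while Lpl, which macrophages also make, was called higher only with normal samples 3 and 4 both included. Adipoq had 8.76, 9.70, 9.93 and 10.87 in normal marrow, intensities of 434.5 to 1964, and the leukaemias ran from 5.63 over 6.50 to 9.66. All leukaemias but MLL-GAS7_407 were below all normal samples, and that mouse was the only leukaemia in which Adipoq exceeded its array's median. The change was -3.16 ± 0.33 (adjusted p = 8.99e-10, limma). Since the leukaemic intensities (median 42.5) were below the added 46.1, this understates the change: with 1 added in place of 46.1 it was -4.23 (adjusted p = 2.48e-06, limma). Lpl had 8.42, 10.14, 10.67 and 11.88 in normal marrow by 1415904_at and 9.21 to 13.50 in leukaemias, with a median of 11.80. The groups overlapped: 14 of 34 leukaemias were above all normal samples and 29 above the normal median. Its changes were 1.32 ± 0.53 (adjusted p = 0.0492) and, by 1431056_a_at, 1.35 ± 0.43 (adjusted p = 0.0117, limma). Without normal sample 3, the lowest in Lpl and 1 of the 5 arrays with the brightest hybridisation controls, they were 0.70 (adjusted p = 0.39) and 1.01 (adjusted p = 0.111, limma). Without normal sample 4 the second was 1.22 (adjusted p = 0.0587, limma). The call by 1415904_at held in 17 of 51 alternatives and was also lost on leaving out many single leukaemic mice, while that by 1431056_a_at held in 48 of 50.

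Cdh5, the endothelial cadherin, gave no called difference between leukaemic and normal marrow as a whole. By 1422047_at the normal samples had 6.92, 7.13, 7.17 and 7.36, the leukaemias ran from 6.09 to 7.88, and the change was 0.04 ± 0.24 (adjusted p = 0.908). This probe set exceeded the array median on 0 normal and 4 leukaemic arrays, so that it was near the dim end of the scale in all groups. The other, 1433956_at, had 6.14, 7.24, 7.85 and 8.08 in normal marrow and 5.71 to 7.48 in leukaemias, a change of -0.76 ± 0.30 without the filter that missed the threshold (adjusted p = 0.0585, limma). In that fit MLL-AF1p alone of the 5 cohorts passed against normal marrow, at -0.97 ± 0.34 (adjusted p = 0.0341, limma), and the other cohorts ran from -0.73 to -0.69 (adjusted p from 0.153 to 0.242). The difference between MLL-AF1p and the other cohorts was not called (-0.27, adjusted p = 0.775, limma).

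The falls were seen in each cohort. All cohorts share the same 4 normal samples, so these comparisons are not independent of each other. Of the 20 kept member probe sets, 12 were lower for MLL-GAS7 (against 9.33% of all kept probe sets) and 13 for each of MLL-AF1p (11.3%), MLL-AF10 (10.8%), MLL-AF9 (9.02%) and MLL-ENL (10.3%). Of these 20, 9 passed the filter only with the help of the normal samples, which favours a lower call for them in every cohort. All 9 were among the lower ones in every cohort, except that Col3a1 was not called in MLL-GAS7. Counts by cohort without the filter are not given here. The counts are thus a description. Cxcl12 by 1417574_at changed most in MLL-ENL (-4.57) and MLL-AF1p (-4.06), followed by MLL-AF9 (-3.72), MLL-AF10 (-3.46) and MLL-GAS7 (-2.51), all called. Sparc by 1416589_at stayed within -3.14 and -2.78 over the 5 cohorts, and Kitl by 1415855_at within -2.49 and -2.08. Col3a1 was called in 4 cohorts and not in MLL-GAS7, where it changed by -0.35 (adjusted p = 0.41, limma). Col1a1 by 1455494_at was not called in MLL-AF1p (-0.50, adjusted p = 0.106), while Lepr by 1425875_a_at was called in MLL-AF1p alone (-0.66).

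**Figure D3:**
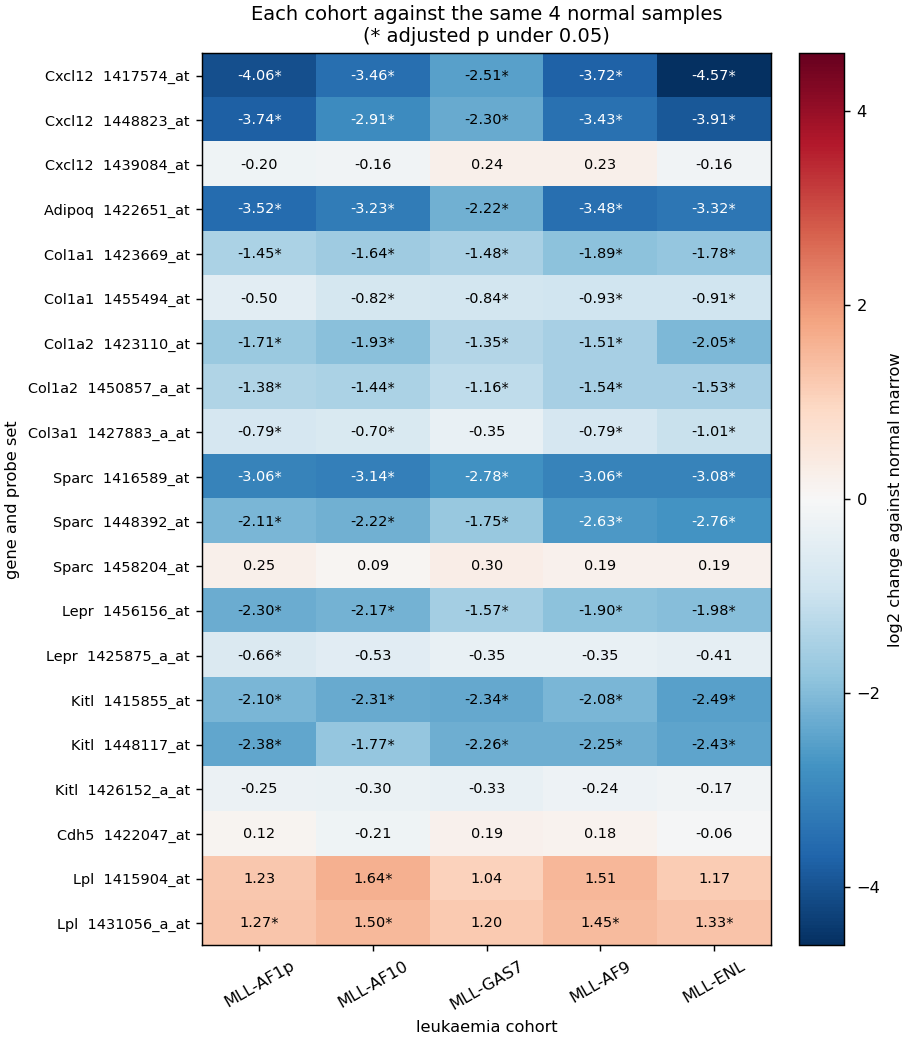
Log2 change of the 20 kept member probe sets (rows) in each leukaemia cohort (columns) against the same 4 normal samples, with an asterisk where the adjusted p was under 0.05. Cxcl12 is lower in every column by 2 of its 3 probe sets, from -2.30 to -4.57, with the smallest values under MLL-GAS7.

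Of the members, Cxcl12 passed an F test among the 5 cohorts. It did so by 1417574_at (adjusted p = 0.011) and 1448823_at (adjusted p = 0.0326, limma), that is 2 of the 20 probe sets, against 6.28% of all. Both read the same gene, and the count is near that share. It fell to 1 without any 1 of the mice MLL-GAS7_405, MLL-GAS7_407, MLL-GAS7_408, MLL-ENL_701, MLL-ENL_702 and MLL-ENL_760. In order of the cohort means by 1417574_at, MLL-GAS7 had 9.40 ± 1.43 (SD, n = 5), MLL-AF10 8.45 ± 0.58 (n = 8), MLL-AF9 8.19 ± 0.37 (n = 5), MLL-AF1p 7.86 ± 0.39 (n = 9) and MLL-ENL 7.34 ± 0.63 (n = 7). Each step between neighbours in that order was smaller than the larger of the 2 SDs. Against the mean of the other 4 cohorts, MLL-GAS7 was higher in Cxcl12 by 1.44 ± 0.34 (adjusted p = 0.0122) and 1.19 (adjusted p = 0.0404) and in Adipoq by 1.17 (adjusted p = 0.0244, limma), 3 of 20 probe sets, where 3.45% of all differed in either direction. MLL-ENL was lower in Cxcl12 by 1417574_at, at -1.13 (adjusted p = 0.0289, limma), 1 of 20 against 3.83%, a count near that share. That call was lost without any 1 of the mice MLL-ENL_701 (-0.92, adjusted p = 0.0937), MLL-ENL_702, MLL-ENL_703, MLL-ENL_741 and MLL-ENL_760, where the adjusted p was 0.0549 to 0.0592 (limma). For MLL-AF1p, MLL-AF10 and MLL-AF9 0 member probe sets were called, against 1.26%, 0.445% and 0.355% of all. At an unadjusted p under 0.05 (limma) the counts were 3, 1 and 0. The shares of all probe sets under that unadjusted p are not given here, so that these counts are a description.

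The MLL-GAS7 differences were all lost without 1 mouse, and some of them under other changes as well. In Cxcl12 by 1417574_at the 5 MLL-GAS7 mice had 7.70 (MLL-GAS7_406), 8.69 (MLL-GAS7_410), 9.26 (MLL-GAS7_405), 9.83 (MLL-GAS7_408) and 11.53 (MLL-GAS7_407), and by Adipoq 6.41, 7.18, 7.41, 7.30 and 9.66 in the same order of mice. Mouse MLL-GAS7_407 was the highest leukaemia of all in both and lay inside the normal range in both. Without it the MLL-GAS7 differences were 0.91 (adjusted p = 0.149), 0.68 (adjusted p = 0.367) and, in Adipoq, 0.65 (adjusted p = 0.274, limma), and none was called. Without mouse MLL-GAS7_408 the first was 1.33 (adjusted p = 0.0521, limma). The MLL-ENL difference without mouse MLL-GAS7_407 was -0.999 (adjusted p = 0.024, limma). Mouse MLL-GAS7_407 also had the highest summed adipocyte (6052), B-cell (5244), megakaryocyte (3432) and erythroid (1187) markers among the leukaemias, in units of intensity, and was among the 5 arrays with the brightest hybridisation controls; the part of these in its niche values was not tested. The changes against normal marrow were as large without it, at -3.77 and -3.36 for Cxcl12 and -3.26 for Adipoq.

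Within the leukaemias, 4 of the 45 pairs of member genes were related after cohort means were subtracted (34 mice, 2-sided permutation tests with 100000 resamples, Benjamini-Hochberg over the 45 pairs, each gene by its probe set with the highest mean). Cxcl12 and Adipoq rose and fell together, with Pearson r = 0.672 (permutation p = 3e-05, adjusted p = 0.00135) and Spearman rho = 0.527 (permutation p = 0.00142, adjusted p = 0.0391). Leaving out the 2 mice farthest from the median of Cxcl12, r was 0.574. Col1a1 and Col1a2, the partner chains of type I collagen, had r = 0.603 (permutation p = 0.00021, adjusted p = 0.00472) and rho = 0.508 (permutation p = 0.00228, adjusted p = 0.0391), and r = 0.423 without the 2 farthest mice. Cxcl12 and Lpl ran in opposite directions, with r = -0.556 (permutation p = 0.00066, adjusted p = 0.0099), rho = -0.505 (permutation p = 0.00261, adjusted p = 0.0391) and r = -0.443 without the 2. Cxcl12 and Col1a2 had r = 0.513 (permutation p = 0.00177, adjusted p = 0.0199), rho = 0.442 (permutation p = 0.00889, adjusted p = 0.1) and r = 0.38 without the 2. Without MLL-GAS7_407 only Col1a1 with Col1a2 stayed past the threshold in r (r = 0.643, permutation p = 8e-05, adjusted p = 0.0036). The other 3 pairs then had adjusted permutation p of 0.0922 (Adipoq, r = 0.488), 0.121 (Lpl, r = -0.427) and 0.121 (Col1a2, r = 0.436). With the probe set of highest SD for each gene 2 pairs passed in r, Cxcl12 with Adipoq and with Lpl, and Col1a1 with Col1a2 did not. Without MLL-GAS7_407 as well, 0 pairs passed in r, and Cxcl12 with Adipoq had r = 0.373 (permutation p = 0.0328, adjusted p = 0.423). The labels name no batch, but a component of the values parted the leukaemias into array sets of 16 and 18. Within them r was 0.771 and 0.52 for Cxcl12 with Adipoq (permutation p = 0.00226 and 0.0267) and -0.576 and -0.553 for Cxcl12 with Lpl (permutation p = 0.0195 and 0.0169). For Col1a1 with Col1a2 it was 0.533 and 0.72 (permutation p = 0.0338 and 0.00092), and for Cxcl12 with Col1a2 0.523 and 0.666 (permutation p = 0.0377 and 0.00251). For Cxcl12 with Adipoq rho was 0.418 and 0.356 (permutation p = 0.111 and 0.146). It was 0.338 and 0.511 for Cxcl12 with Col1a2 (permutation p = 0.201 and 0.031). For Cxcl12 with Lpl it was -0.579 and -0.614 (permutation p = 0.0201 and 0.00735), and for Col1a1 with Col1a2 0.524 and 0.655 (permutation p = 0.039 and 0.00412). These 4 pairs were picked from the same mice, and these p values are unadjusted. The values within sets are thus a description and no independent support. Mouse MLL-GAS7_407 is in the set of 16.

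**Figure D4:**
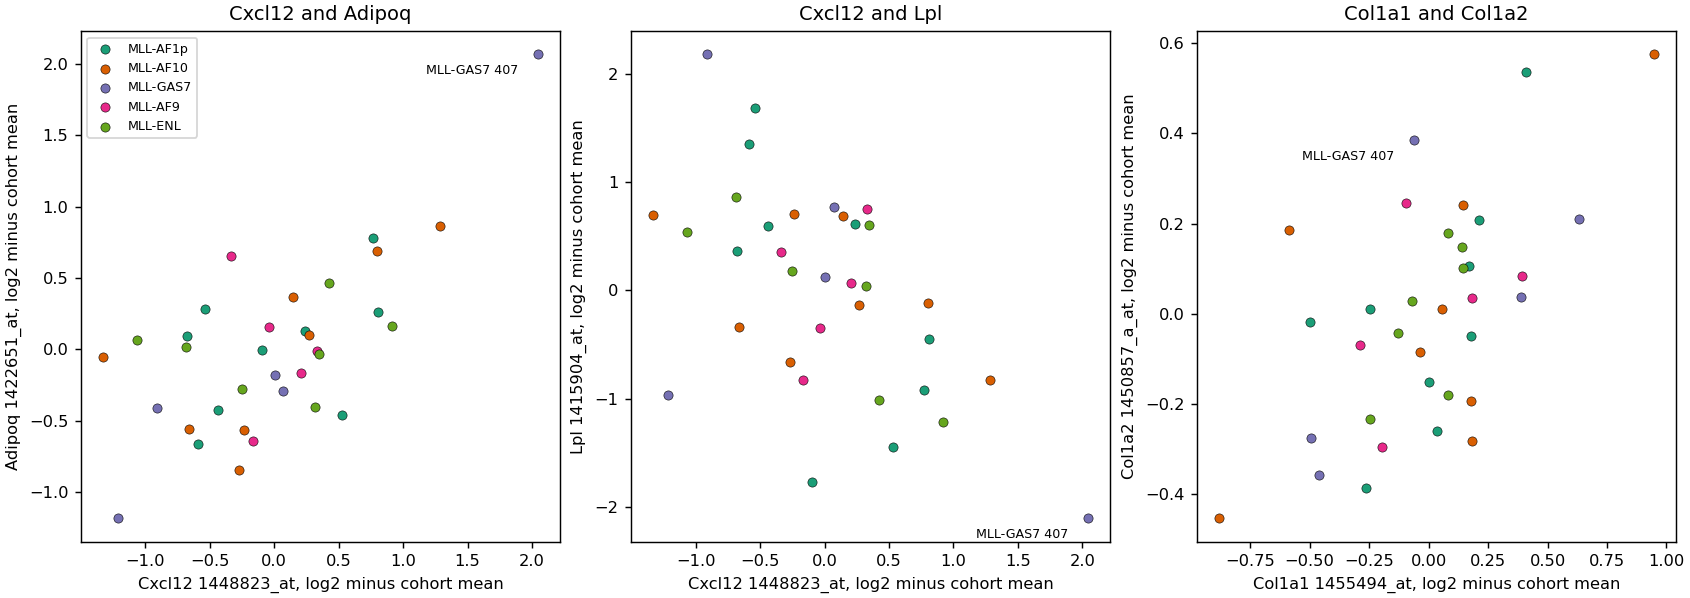
Levels of 3 pairs of member genes in the 34 leukaemic mice, each as log2 level minus its cohort mean (both axes), by the probe set with the highest mean. Colours are cohorts; mouse MLL-GAS7_407 is at one end of the Cxcl12 axis, with r = 0.672 for Cxcl12 with Adipoq, -0.556 with Lpl and 0.603 for Col1a1 with Col1a2.

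The genes whose levels most resembled each member over the 34 leukaemias, with cohort means subtracted and no test, are given by Pearson r. For Cxcl12 they were Gimap4 (r = 0.699), the chemokine Ccl5 (0.698) and the matrix proteoglycan Bgn (0.687). Adipoq went with the fatty acid carrier Fabp4 (0.664), the T cell receptor chain Cd3d (0.653) and Fam81a (0.647), which fell to 0.349, 0.356 and 0.488 without MLL-GAS7_407. Col1a1 went with the interferon-response genes Irf7 (0.625), Ifit2 (0.621) and Ifit1 (0.617), and Col1a2 with Fstl1 (0.632), Mmp17 (0.559) and the receptor kinase Axl (0.55). Lpl had the closest companions, Slc2a6 (0.806), Tppp3 (0.803) and Epha2 (0.8). Col3a1 went with Aqp9 (0.655), Abca12 (0.604) and Sema4g (0.584), and Cdh5 with Gpc6 (0.622), Il1f5 (0.558) and Ceacam9 (0.558). Sparc (Slc22a26, 0.742), Lepr (Tac1, 0.666) and Kitl (Olfr544, 0.703) were represented here by probe sets that gave no call against normal marrow in the whole series. Genes measured on the same arrays share depth and quality, and these values are a description.

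Other genes of the same cell types were read from lists, each gene by its probe set with the highest mean. Over all genes read this way 12.5% were lower and 28.3% higher. Of 13 stromal progenitor genes kept, 5 were lower and 1 higher, with a median change of -0.55 against 0.16 for all genes. The lower ones were led by Gas6, a ligand of the receptor Axl, at -2.34 ± 0.20 (adjusted p = 4.46e-12), the adhesion molecule Vcam1 at -1.44 ± 0.51 (adjusted p = 0.0247) and the chemokine Cxcl14 at -1.35 ± 0.21 (adjusted p = 2.25e-06, limma). Nestin, Nes, rose by 0.49 ± 0.18. The transcription factors Foxc1 (-0.64) and Ebf3 (-0.55), which reticular cells need, missed the threshold (adjusted p = 0.109 and 0.053).

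Of 15 bone and matrix genes kept, 8 were lower and 0 higher (limma), against the same 12.5% and 28.3%, with a median of -0.61. Bgn fell by 2.22 ± 0.20, Col5a1 by 1.52 ± 0.16, the calcification inhibitor Mgp by 1.27 ± 0.37 and Col6a1 by 1.24 ± 0.39. The summed intensity of the list nevertheless ran from 13400 to 16440 in normal marrow and from 3666 to 41820 in leukaemias, where fibronectin (Fn1), which myeloid cells also make, had a change of 0.997 ± 0.42 (adjusted p = 0.0596). Of 5 adipocyte genes kept, Fabp4 fell by 2.06 ± 0.38 (-0.12, adjusted p = 0.638, limma, without probe sets of the _a_at, _s_at and _x_at classes), the lipase Pnpla2 rose by 0.49 ± 0.18, and 3 were not called. Of 13 endothelial genes kept, 6 were lower and 2 higher, against 12.5% and 28.3% of all genes, with a median of -0.49. The TGF-beta co-receptor Eng fell by 1.27 ± 0.20, the junction protein Esam by 1.02 ± 0.23 and the lymphatic receptor Flt4 by 0.90 ± 0.26, while Pecam1, which myeloid cells also express, rose by 0.87 ± 0.27.

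Of 16 receptors and partners of the member products kept, 6 were higher and 2 lower, near the shares over all genes (28.3% higher and 12.5% lower), with a median of 0.27. Cxcr4, the receptor of CXCL12 on blood cells, rose by 0.88 ± 0.14 (adjusted p = 4.34e-06, limma), and Kit, the receptor of KITL, had a change of 0.20 ± 0.31. The collagen-modifying enzymes Plod1 and P4hb rose by 1.47 ± 0.21 and 1.35 ± 0.14, and Lmf1, which folds lipoprotein lipase, by 1.24 ± 0.22. The adiponectin receptor Adipor1 fell by 1.02 ± 0.14. Gpihbp1, the endothelial anchor of lipoprotein lipase, fell by 0.45 ± 0.14.

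Markers of other marrow cells moved in the same comparison. Summed intensities of 10 megakaryocyte genes ran from 24640 to 37220 in normal marrow and from 1641 to 3432 in leukaemias (9 lower, 0 higher). For 7 erythroid genes the sums were 94490 to 130200 and 310 to 1187 (7 lower), for 7 B-lineage genes 9853 to 20780 and 1185 to 5244 (7 lower), and for 11 resident macrophage genes 10940 to 22420 and 3704 to 8431 (9 lower, 1 higher). The stromal progenitor sums were 14580 to 24110 and 5242 to 20830, and the endothelial sums 4107 to 5728 and 2321 to 5041, so that these overlapped. Mural (4 kept) and cartilage (4 kept) genes had medians of -0.0094 and -0.12 and no call (limma), 4 muscle genes kept had 1 lower and 1 higher, and 4 osteoclast genes kept had 1 lower. No gene of these lists had an intensity of 0, since all deposited values were at least 0.1. The part of these lower marker levels in the member values, among them Sparc, which megakaryocytes also make, was not tested.

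**Figure D5:**
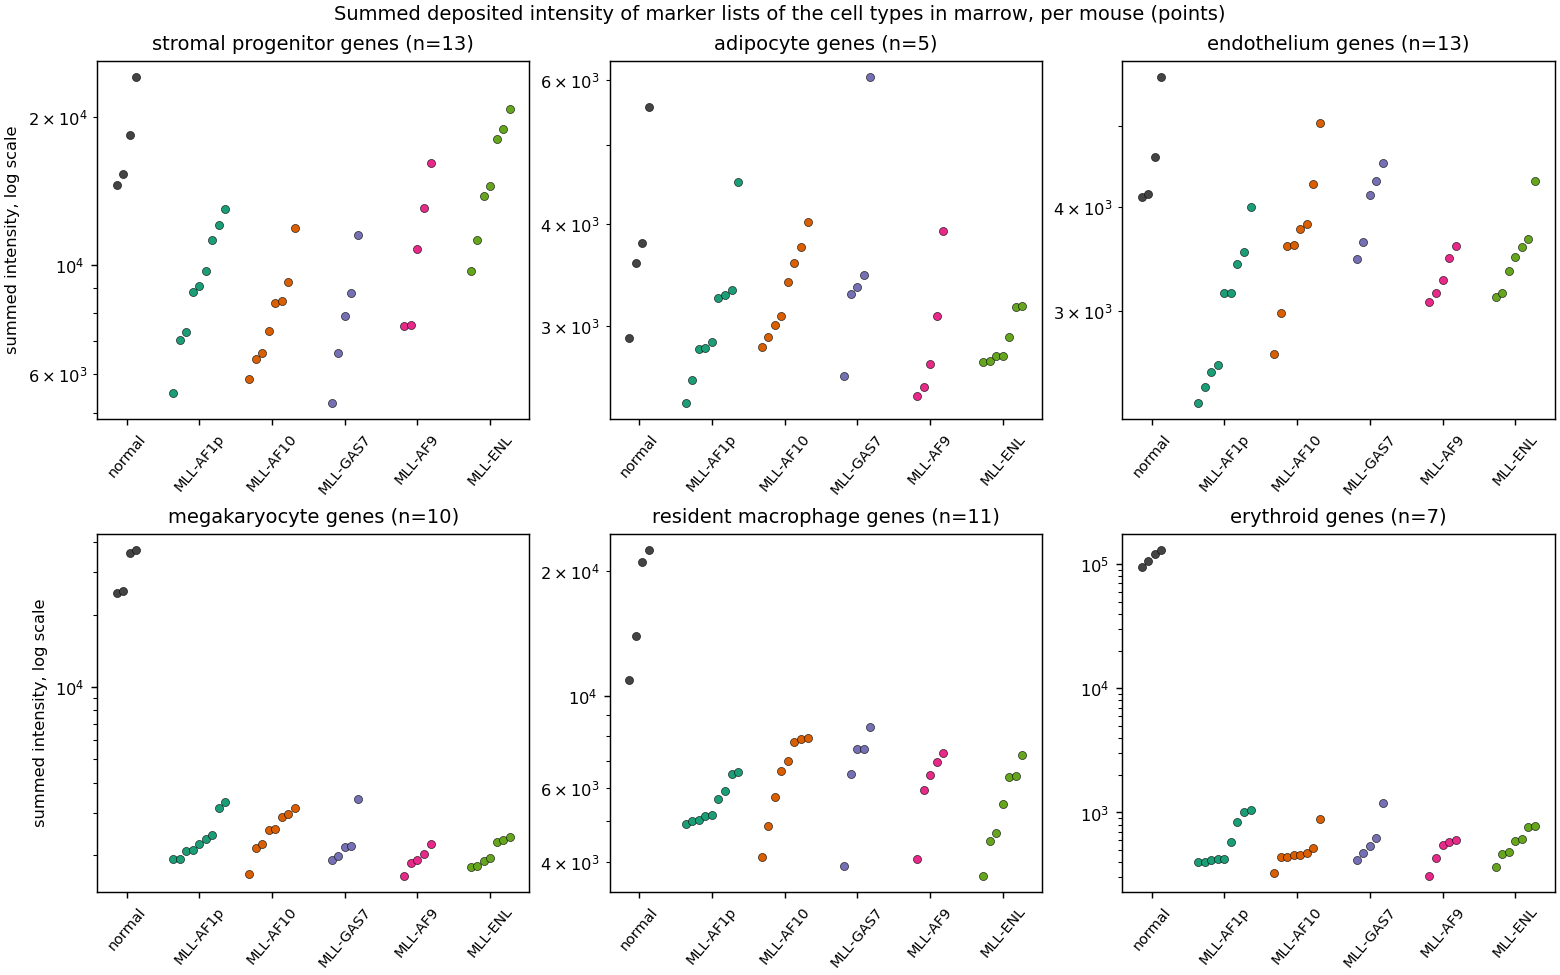
Summed deposited intensity of 6 marker lists (y axes, log scale) in each mouse, by group on the x axis, with points sorted by value within a group. Megakaryocyte, macrophage and erythroid sums of all leukaemias lie below those of the 4 normal samples, while stromal, adipocyte and endothelial sums overlap.

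As a check of the labels, the MLL fusion targets Hoxa9, Meis1 and Hoxa10 were higher in leukaemic marrow by 4.95, 3.70 and 3.28. The arrays' median intensities ran from 129.2 to 208.3. A component holding 7.86% of the variation within groups parted the arrays into a set of 16 leukaemias and a set of 18 leukaemias with all 4 normal samples; the labels name no batch. Within the second set alone 13 of 16 member probe sets tested were lower. The share lower over all 26963 probe sets tested there is not given here, so that this count is a description. That set is part of the whole series and holds the same normal samples, so that overlap between them is not independent support. Of the 13 in that set, 11 were among the 13 of the whole series. The other 2 were Lepr 1425875_a_at (-0.47, adjusted p = 0.0225) and Kitl 1426152_a_at (-0.29, adjusted p = 0.0348, limma), while Col1a2 1423110_at and Col3a1 1427883_a_at did not pass the filter there. Between cohorts no member probe set was called in that set: Cxcl12 by 1417574_at differed by 1.20 in MLL-GAS7 (adjusted p = 0.136) and -0.68 in MLL-ENL (adjusted p = 0.424, limma). The 3'/5' difference of the actin control was 0.07 to 0.22 (log2) in normal samples and 0.15 to 0.65 in leukaemias, and the 18S ribosomal RNA control was at 7.16 to 8.40 and 7.91 to 11.12; the part of both was not tested. Eif2s3y, a gene of the Y chromosome, was at 9.77 to 10.41 in normal samples and 8.76 to 10.73 in MLL-AF9, but at most 6.99 in the other cohorts. The signal of this gene is thus uneven between groups. In transplanted mice it can come from donor or recipient cells, so that it does not give the sex of the recipients. The part of sex in the differences was not tested. In MLL-AF9 the changes were -3.72 and -3.43 for Cxcl12, -3.48 for Adipoq and -3.06 for Sparc (1416589_at).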

How the data were processed

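RNA of whole bone marrow was measured on 38 arrays, 1 per mouse. The deposited values are linear intensities of 45101 probe sets, and their 2% trimmed mean is 500 on every array; the software behind them is not given in the sources used. Detection calls played no part. From these, log2(intensity + 46.1) was computed, arrays were shifted to the same median because their medians spanned 0.54 log2, 64 control probe sets were left out, and the 29004 above their array's median on at least 4 arrays were kept. Group means of all 6 groups were fitted with limma 3.58.1 (R 4.3.3), with Benjamini-Hochberg adjustment over all kept probe sets and a threshold of 0.05. The leukaemia value is the mean of the 5 cohort means. Symbols came from the platform annotation: 34958 probe sets had 1 symbol, 932 several and 9211 none. The scripts were tested on simulated data. Named genes were all members, from each list the called genes of largest change (up to 4), and the 3 closest companions of each member; Nes, Foxc1, Ebf3, Fn1, Cxcr4, Kit, Gpihbp1 and Igfbp5 fall outside this rule and were chosen after their values were seen. Members and lists were chosen with earlier results of these data known. Mice are separate samples by the labels. The number of arrays limits the precision. Alternatives covered pseudocount, scaling, filter, gene summary, array weights, probe set class, array sets and each array left out.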

Additional observations from a re-analysis of the deposited data

Results flagged for a closer look

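Of 120 combinations of a member probe set and a group, 9 held a mouse set apart from the others by its gap (Dixon's criterion); chance flags about 1 in 20 groups. In Sparc (1416589_at) MLL-GAS7_407 was highest at 7.74, with the next mouse at 6.52, and in Sparc (1448392_at) MLL-AF9-310 was highest at 7.59. In Col1a1 (1423669_at) MLL-AF10_797A was highest at 7.69, and in Col3a1 (1427883_a_at) normal sample 1 was highest at 8.46. For the dim Cxcl12 probe set 1439084_at, MLL-AF1p_810 stood at 7.79, MLL-ENL_703 at 7.65 and normal sample 2 at 8.15. Lowest in their groups were MLL-AF10_798A in Kitl (1426152_a_at, 7.22) and MLL-AF1p_810 in Lepr (1425875_a_at, 6.66).

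Differences between cohorts passed the test for Cxcl12 in MLL-GAS7 (1.44 by 1417574_at and 1.19 by 1448823_at), for Adipoq in MLL-GAS7 (1.17) and for Cxcl12 in MLL-ENL (-1.13 by 1417574_at), each against the mean of the other 4 cohorts. The MLL-GAS7 calls were lost without mouse MLL-GAS7_407, and the MLL-ENL call on leaving out any of several single MLL-ENL mice.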

How the results depend on the processing

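Of the 15 member probe sets called against normal marrow, 11 were called under every one of the 52 settings that tested them, and 0 changed sign; the exceptions were both Col1a1 and both Lpl probe sets. Member probe sets higher fell from 2 to 1 with pseudocount 1, values as deposited, quantile normalization, no filter, the array set as a term, array set 2 alone or without the 5 arrays whose hybridisation controls were brightest, and to 0 without probe sets of the _x_at, _s_at and _a_at classes; member genes higher was 0 in all of these. A stricter filter tested 8 member probe sets: 4 were lower, with 4 in MLL-AF1p and 3 in each other cohort, 3 genes, and 5 bone matrix genes. Without the 5 bright arrays 14 were tested and 8 were lower, also 8 in MLL-AF1p, MLL-AF10, MLL-AF9 and MLL-ENL, with 3 genes lower. The shares lower over all 22239 and 28102 probe sets tested in these settings are not given here, so that these counts are a description. Calls between cohorts went from 4 to 2 with pseudocount 1, 0 in array set 2 alone and 1 without the bright arrays, and F calls from 2 to 1 and 0 in the last pair. Genes lower rose from 5 to 8 with the mean of a gene's probe sets or that of highest SD. Stromal progenitor genes lower were 8 with the mean and 2 without the probe set classes; those higher were 0 as deposited, with the array set term, in set 2 and by highest SD. Adipocyte genes higher were 0 as deposited, with quantiles, the mean, without the classes (0 lower too) and by highest SD. Bone matrix genes higher were 1 with the mean, array weights and highest SD; endothelial genes higher were 1 as deposited, in set 2 and without the classes (3 lower). Related pairs numbered 9 as deposited, 2 by highest SD and 1 without MLL-GAS7_407. The array set, bright array and highest SD settings, and the pairs without MLL-GAS7_407 and within array sets, were chosen after seeing the data.

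Igfbp5 turned from 0.09 to -1.03 with the mean of its probe sets and to -2.16 by highest SD, and Pnpla2 from 0.49 to -0.0014 without the classes and by highest SD; the cause was not tested. Leaving out 1 mouse at a time gave 11 to 14 member probe sets lower and 0 to 2 higher, 9 to 13 lower in MLL-AF1p, 10 to 14 in MLL-AF10, 8 to 12 in MLL-GAS7, 10 to 13 in MLL-AF9 and 11 to 13 in MLL-ENL. It gave 1 to 4 calls between cohorts, 1 to 3 F calls, 4 to 6 genes lower and 0 to 1 higher, 3 to 6 stromal genes lower and 0 to 1 higher, 1 to 1 adipocyte genes lower and 0 to 1 higher, 4 to 9 bone matrix genes lower and 0 to 1 higher, 4 to 6 endothelial genes lower and 1 to 3 higher, and 2 to 2 partners lower and 4 to 7 higher. The shares over all probe sets with 1 mouse left out are not given here, so that these ranges are a description. The median change of all genes was 0.16, and 0.04 as deposited. No paired analysis was made, since the mice are separate samples by the labels. Dim probe sets have little signal over background, which limits Cdh5.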
